A study of Mus musculus with 18 samples.

Results

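A group of 9 genes of the core pluripotency circuit and the primed epiblast was followed in mouse embryoid bodies: Pou5f1, Sall4, Foxd3, Utf1, Otx2, Pou3f1, Sall2, Enpp3 and Slc7a3. They are 9 of the 18193 genes with a probe set annotated to them alone, and were taken by name with earlier results of these data known. They have 17 such probe sets of 45101 on the array. Of these, 16 passed a filter on dim signal and were tested. Embryoid bodies are clumps of stem cells that differentiate in suspension. RNA was hybridised to 18 Affymetrix arrays of 1 channel, 3 in each of 6 groups, to ask what Msgn1 does when it is switched on early. The induced groups were embryoid bodies of the inducible line A2lox-Flag-Msgn1, strain 129P2 (formerly called 129/Ola), given 1 µg/ml doxycycline on day 2 of differentiation and collected 12, 24 and 48 h later. The uninduced groups came from the same line at the same 3 times, carried the same Flag-Msgn1 cassette and received no doxycycline. All cells came from this 1 line, and no group received doxycycline without the cassette. Before differentiation the stem cells had grown with LIF on mitomycin-treated mouse embryonic fibroblasts. The labels place the start of endogenous presomitic markers in this protocol on day 3.

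Pluripotent cells pass through ordered states. In the naive state a network around Pou5f1, Nanog and Sox2 works with factors such as Klf4 and Zfp42. On the way to the primed, epiblast state the naive factors decline while Pou5f1 stays on, and Otx2 directs Pou5f1 to new enhancers. Pou3f1 is a further factor of the primed state. Msgn1 (mesogenin 1), of the basic helix-loop-helix class, acts in presomitic mesoderm, which gives rise to the somites, and cells that enter this lineage leave the epiblast state.

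The 9 genes lie on 7 chromosomes of GRCm38.p6, the RefSeq mouse assembly used here for names and places. Pou5f1 is at chr17:35506032-35510777, Sall4 at chr2:168748332-168767201, Foxd3 at chr4:99656299-99658671, Utf1 at chr7:139943856-139945112 and Otx2 at chr14:48656781-48667644. Pou3f1 is at chr4:124657646-124660655, Sall2 at chr14:52311177-52328670, Enpp3 at chr10:24773814-24836195 and Slc7a3 at chrX:101079146-101090452. The 250 bases before the gene start were matched in RefSeq for 6 of the 9 genes, and Sall4, Pou3f1 and Slc7a3 had no entry. Factors of the basic helix-loop-helix class bind E-boxes, written CANNTG with N for any base, a pattern that reads the same on both strands. An E-box was present in 5 of these 6 gene-start windows. Over 32851 mouse windows of the same length the share was 66.2%, but those include further starts within a gene. The members had 11 windows when such starts are included, and Pou5f1, Otx2 and Sall2 held further E-boxes there. The windows of Enpp3 and Foxd3, the genes with the 2 largest falls at 48 h, are given here with that of Pou5f1, which fell least among the genes called, and that of Utf1, which held no E-box. The set was chosen after the values were seen, and each is printed 5′ to 3′ on the strand of the gene, with E-boxes in capitals.
Enpp3 (minus strand, chr10:24836196-24836445): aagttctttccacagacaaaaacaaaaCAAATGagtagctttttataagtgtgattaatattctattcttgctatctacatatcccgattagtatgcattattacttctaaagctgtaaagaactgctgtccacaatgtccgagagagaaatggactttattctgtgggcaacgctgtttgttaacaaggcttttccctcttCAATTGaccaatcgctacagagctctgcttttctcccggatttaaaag
Foxd3 (plus strand, chr4:99656049-99656298): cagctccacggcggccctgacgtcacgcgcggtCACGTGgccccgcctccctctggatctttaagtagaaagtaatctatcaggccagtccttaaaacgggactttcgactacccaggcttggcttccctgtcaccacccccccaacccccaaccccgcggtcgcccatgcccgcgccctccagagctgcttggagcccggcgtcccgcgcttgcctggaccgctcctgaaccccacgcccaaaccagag
Pou5f1 (plus strand, chr17:35505782-35506031): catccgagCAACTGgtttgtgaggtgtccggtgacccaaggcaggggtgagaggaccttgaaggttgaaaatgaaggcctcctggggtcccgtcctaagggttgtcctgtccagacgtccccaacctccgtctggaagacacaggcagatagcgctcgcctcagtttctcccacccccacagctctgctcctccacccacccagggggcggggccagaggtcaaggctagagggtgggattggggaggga
Utf1 (plus strand, chr7:139943606-139943855): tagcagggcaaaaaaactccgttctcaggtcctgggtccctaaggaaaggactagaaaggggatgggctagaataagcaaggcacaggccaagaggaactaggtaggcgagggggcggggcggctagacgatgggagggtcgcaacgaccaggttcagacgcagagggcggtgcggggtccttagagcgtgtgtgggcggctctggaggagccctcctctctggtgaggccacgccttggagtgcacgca
In the printed windows the E-boxes of Enpp3 start at positions -223 and -48 from the gene start, that of Foxd3 at -217 and that of Pou5f1 at -242. GC content was 36.8% in the Enpp3 window, 65.6% in that of Foxd3, 62% in that of Pou5f1 and 61.6% in that of Utf1, beside a median of 52.4% over all windows. A match describes letters in a window and does not show that a protein binds there.

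Msgn1, the induced gene, checks the labels. It had a signal between 44.5 and 76.8 on the 9 induced arrays and between 4.69 and 25.2 on the 9 uninduced arrays. Array medians lay between 18.8 and 22.1 and replicates of a group correlated at 0.990 to 0.994, with no pair of arrays holding identical values. Levels are the deposited signal, on a linear scale. Changes are differences between group means of log2(signal + 32), and the value after ± is their standard error in the fit unless SD is named. Folds refer to that same quantity and understate the change of a gene that reaches low signal. A change was called at a limma adjusted p under 0.05 over 26037 probe sets, and for each gene the probe set with the highest mean is described array by array, in the order of replicates 1, 2 and 3. The labels name the arrays of a group biological replicates. Each p-value weighs a difference against the spread between replicate arrays, pooled over all 6 groups and drawn towards a trend with intensity. Signals of different probe sets are not compared with each other, and fewer cells of a type cannot be told apart from less RNA per cell in such bulk samples.

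At 48 h of induction 8 of the 9 genes were lower than in uninduced embryoid bodies, and Sall4 was the exception. Of the 16 probe sets 12 fell and 0 rose, while over all 26037 probe sets 3.91% fell and 4.95% rose. Since the members were chosen with earlier results known, these shares describe the members and do not test them. Falls ranged from 2.78-fold for Enpp3 and 2.77-fold for Foxd3 to 1.31-fold for Pou5f1, and the median over the 16 probe sets was -1.02 beside 0.0016 over all. At 24 h, 5 probe sets of Pou3f1, Sall2, Enpp3 and Slc7a3 fell and 0 rose, against 0.465% and 1.85% of all probe sets, and the median was -0.33. With the replicate number as a block at 24 h, 7 member probe sets were called. At 12 h limma called 0 of the 16 in either direction. Of all probe sets 0.557% rose and 0.0922% fell at that time by the same calls, and the members' median was -0.21. An unadjusted limma p under 0.05 was found for 7 of the 16, among them Sall4 1424152_at, which was higher. The share of all probe sets under that unadjusted limit was not counted. The 4 probe sets not called at 48 h were both of Sall4 and 2 dim ones, Utf1 1458333_x_at and Enpp3 1425353_at. Each of these dim probe sets passed the filter through 1 group alone, with a highest group mean of 15.3 in induced embryoid bodies at 48 h and of 14.6 in induced ones at 24 h, just above the limit of 13.3. Enpp3 1427303_at did not pass, with a highest group mean of 10.3. The suffixes _s_at, _x_at and _a_at mark probe sets that may match several transcripts.

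**Figure D1:**
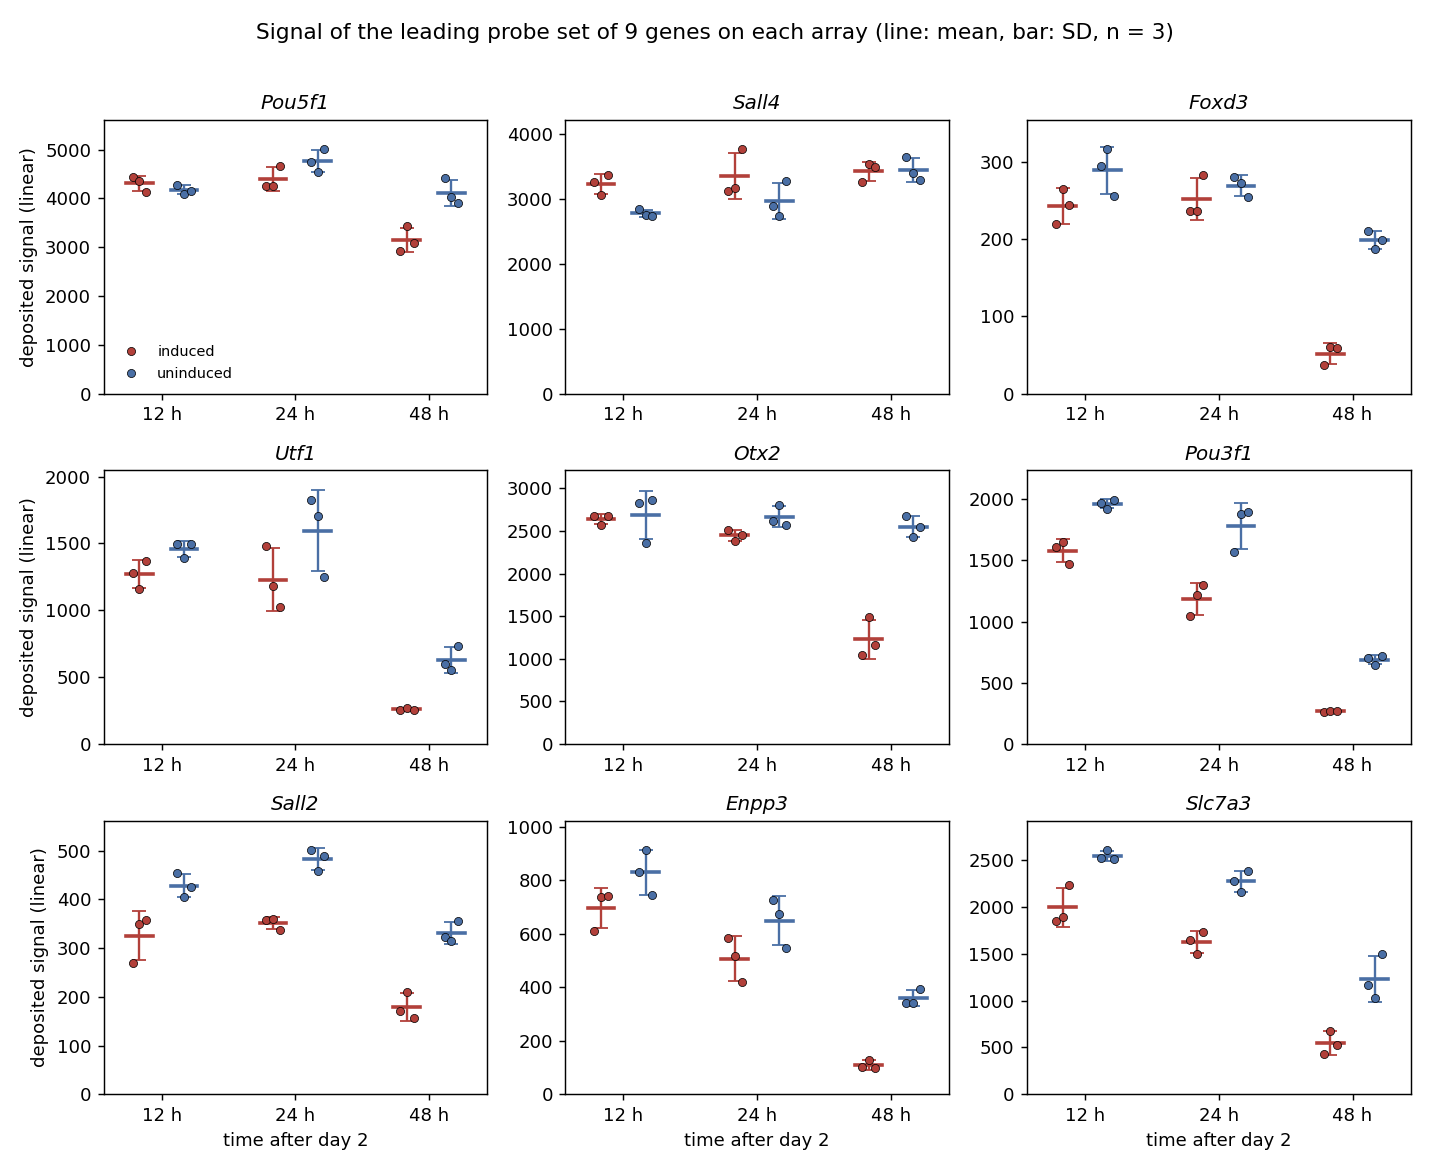
Deposited signal (linear axis from 0) of the leading probe set of the 9 genes by time after day 2, when doxycycline was added to the induced groups, with induced arrays in red to the left of uninduced arrays in blue. Points are single arrays, lines group means and bars the SD (n = 3). The 3 induced arrays at 48 h lie below every other array for each gene except Sall4.

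Pou5f1 encodes Oct4, the POU factor that naive and primed cells both need. At 12 h Pou5f1 had signals of 4434, 4359 and 4126 in induced arrays, against 4281, 4092 and 4162 in uninduced ones. At 24 h Pou5f1 measured 4259.6, 4251 and 4673 in induced ones, against 4744, 4546 and 5006 in uninduced ones. At 48 h Pou5f1 measured 2931, 3428 and 3089 in induced arrays and 4419, 4036 and 3899 in uninduced ones. The groups overlapped at 12 h and 24 h, and at 48 h every induced array lay below every uninduced one. At 48 h Pou5f1 fell by 0.38 ± 0.0639 on the log2 scale (adjusted p = 2.67e-04), so that the mean induced signal stood at 76.5% of the uninduced one. At 12 h the difference was 0.04 ± 0.0639 (adjusted p = 0.890) and at 24 h -0.12 ± 0.0639 (adjusted p = 0.480). In the order of the 6 groups only induced 48 h was apart from its neighbour, and each neighbouring pair among the other 5 overlapped. Groups that were not neighbours could still be apart. Every uninduced 24 h array lay above every uninduced 12 h and uninduced 48 h array. The difference from uninduced 12 h was 0.19 and was not called by limma (adjusted p = 0.128). The Pou5f1 fall was the smallest of the 8 called at 48 h.

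Pou3f1 encodes Oct6, a POU factor of the primed epiblast and later of neural progenitors, and it fell at 24 h and at 48 h. At 12 h Pou3f1 had signals of 1608, 1654 and 1474 in induced arrays, against 1968, 1923 and 1997 in uninduced ones. At 24 h Pou3f1 measured 1044, 1215 and 1298 in induced ones, against 1568, 1882 and 1898 in uninduced ones. At 48 h Pou3f1 measured 259, 269 and 268 in induced arrays and 701, 646 and 720.1 in uninduced ones. The groups were apart at all 3 times, with induced arrays lower each time. The difference was -0.31 ± 0.0825 at 12 h, which was not called (adjusted p = 0.109), -0.58 ± 0.0825 at 24 h (adjusted p = 2.21e-04) and -1.28 ± 0.0825 at 48 h (adjusted p = 9.18e-10). The 12 h difference was called with the replicate number as a block at 24 h (adjusted p = 0.0105) and when the 12 h arrays were fitted alone (adjusted p = 0.0374). A further probe set, 1422068_at, moved with it at r = 0.972 over the 18 arrays. It fell by 0.79 at 24 h (adjusted p = 0.00315) and by 1.17 at 48 h (adjusted p = 7.57e-06), and at 12 h it differed by -0.58 (adjusted p = 0.0805). That 12 h difference was called without uninduced 12 h replicate 2 (adjusted p = 0.0293) or without induced 48 h replicate 3 (adjusted p = 0.0476).

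Both spalt genes encode zinc finger transcription factors, and Sall2 was called with induction while Sall4 was not. Sall4, which works beside Oct4 in stem cells, had signals of 3255, 3063 and 3363 in induced arrays, against 2840.2, 2745 and 2729 in uninduced ones at 12 h. At 24 h Sall4 measured 3118, 3166 and 3758 in induced ones, against 2892, 2732 and 3271 in uninduced ones. At 48 h Sall4 measured 3254, 3534 and 3479 in induced arrays and 3640.1, 3401 and 3287 in uninduced ones. Induced arrays of Sall4 all lay above the uninduced ones at 12 h and overlapped them at 24 h and 48 h. None of these differences was called: 0.22 ± 0.0734 at 12 h (adjusted p = 0.260), 0.17 ± 0.0734 at 24 h (adjusted p = 0.304) and -0.01 ± 0.0734 at 48 h (adjusted p = 0.974). The 95% interval of the 48 h difference ran from -0.17 to 0.15, which leaves out the falls of the other 8 genes. Its probe set 1424153_s_at, which correlated with the first at only r = 0.494, differed by -0.09 at 48 h (adjusted p = 0.810). Its interval ran from -0.40 to 0.22 and includes a fall as large as that of Pou5f1, close to its lower end. Both intervals use the 12 residual degrees of freedom of the fit. The p-values also draw on the spread of other probe sets, so the intervals are wider than the p-values imply. Every neighbouring pair in the order of Sall4 group means overlapped.

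Sall2, the other spalt gene, had signals of 268, 350.1 and 358 in induced arrays, against 453, 405 and 426 in uninduced ones at 12 h. At 24 h Sall2 measured 357, 359 and 337 in induced ones, against 501, 459 and 488 in uninduced ones. At 48 h Sall2 measured 171, 209.9 and 156 in induced arrays and 322, 314 and 356 in uninduced ones. No induced array reached the uninduced ones at any of the 3 times. Sall2 fell by 0.43 ± 0.102 at 24 h (adjusted p = 0.0250) and by 0.79 ± 0.102 at 48 h (adjusted p = 1.26e-05), and its 12 h difference of -0.37 ± 0.102 was not called (adjusted p = 0.123). The 24 h call was lost without uninduced 24 h replicate 1 (adjusted p = 0.108) or 3 (0.0659), or without induced 24 h replicate 1 (0.0584), 2 (0.0742) or 3 (0.0894). In the order of Sall2 means the induced 24 h, uninduced 48 h and induced 12 h groups overlapped as neighbours, and induced 48 h lay below them.

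Foxd3 and Otx2 were called at 48 h and not at 12 h or 24 h. Foxd3 encodes a forkhead factor that maintains the epiblast. At 12 h Foxd3 had signals of 219, 265 and 244 in induced arrays, against 294, 316 and 256 in uninduced ones. At 24 h Foxd3 measured 237, 236 and 283 in induced ones, against 281, 272 and 254 in uninduced ones. At 48 h Foxd3 measured 36.7, 59.8 and 58.9 in induced arrays and 211, 187 and 199 in uninduced ones. The groups overlapped at 12 h and 24 h, and by 48 h the induced mean was 26.1% of the uninduced mean. At 48 h Foxd3 fell by 1.47 ± 0.112 (adjusted p = 8.76e-09). Differences of -0.22 ± 0.112 at 12 h (adjusted p = 0.537) and -0.09 ± 0.112 at 24 h (adjusted p = 0.826) were not called.

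Otx2 encodes a homeobox factor that drives entry into the primed state and later patterns the forebrain. At 12 h Otx2 had signals of 2674, 2575 and 2673 in induced arrays, against 2830.0, 2363 and 2868 in uninduced ones. At 24 h Otx2 measured 2517, 2384 and 2453 in induced ones, against 2621, 2806 and 2570.0 in uninduced ones. At 48 h Otx2 measured 1047, 1485 and 1160.3 in induced arrays and 2673, 2425 and 2550.1 in uninduced ones. Its groups overlapped at 12 h, were apart by a small margin at 24 h and stood far apart at 48 h, when the induced mean was 48.3% of the uninduced mean. At 48 h Otx2 fell by 1.05 ± 0.0922 (adjusted p = 7.08e-08), beside differences of -0.02 ± 0.0922 at 12 h (adjusted p = 0.973) and -0.12 ± 0.0922 at 24 h (adjusted p = 0.668). Like Pou5f1, Otx2 had 5 groups whose neighbours overlapped and 1, induced 48 h, below them.

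Utf1 encodes a chromatin-bound factor of undifferentiated cells. At 12 h Utf1 had signals of 1279.9, 1162 and 1372 in induced arrays, against 1497, 1389 and 1493 in uninduced ones. At 24 h Utf1 measured 1484, 1183 and 1024 in induced ones, against 1828, 1706 and 1251 in uninduced ones. At 48 h Utf1 measured 251, 269 and 256 in induced arrays and 596, 555 and 736 in uninduced ones. The groups were apart at 12 h, overlapped at 24 h and were apart again at 48 h, when the induced mean was 41.1% of the uninduced mean. Utf1 fell by 1.18 ± 0.128 at 48 h (adjusted p = 1.32e-06). The differences of -0.20 ± 0.128 at 12 h (adjusted p = 0.679) and -0.36 ± 0.128 at 24 h (adjusted p = 0.176) were not called. With the replicate number as a block at 24 h the 24 h difference was called (adjusted p = 0.0201), as it was without uninduced 24 h replicate 3 (adjusted p = 0.0199) or induced 24 h replicate 1 (adjusted p = 0.0436). The probe set 1443786_at correlated with it at r = 0.970 and fell by 0.69 at 48 h (log2 scale, adjusted p = 0.00381), and that change was -0.43 without uninduced 48 h replicate 3.

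Enpp3 and Slc7a3 encode proteins of the cell surface. Enpp3 is an ectonucleotidase that cleaves nucleotides outside the cell, and on the log2(signal + 32) scale its fall at 48 h was close to that of Foxd3. At 12 h Enpp3 had signals of 612, 737 and 742 in induced arrays, against 832, 914 and 744 in uninduced ones. At 24 h Enpp3 measured 585, 517 and 419 in induced ones, against 725, 674 and 547 in uninduced ones. At 48 h Enpp3 measured 101, 129.8 and 96.8 in induced arrays and 342, 343 and 394 in uninduced ones. The groups were apart at 12 h by a small margin, overlapped at 24 h and were far apart at 48 h, when the induced mean was 30.4% of the uninduced mean. At 48 h Enpp3 fell by 1.48 ± 0.123 (adjusted p = 3.55e-08), and the earlier differences were -0.24 ± 0.123 (adjusted p = 0.547) and -0.34 ± 0.123 (adjusted p = 0.196). The probe sets 1439260_a_at and 1452384_at followed it at r = 0.981 and r = 0.961. They fell by 1.39 (adjusted p = 1.50e-07) and 0.99 (adjusted p = 1.26e-06) at 48 h. At 24 h, 1452384_at was called with a fall of 0.47 (adjusted p = 0.0166), and 1439260_a_at differed by -0.48 (adjusted p = 0.0513). The call of 1452384_at was lost with the 24 h arrays alone (adjusted p = 0.101) and without uninduced 24 h replicate 1 (0.0617) or 3 (0.0793) or induced 24 h replicate 1 (0.0907) or 2 (0.0861), while 1439260_a_at was called with the replicate block at 24 h (adjusted p = 0.0442), under 4 other settings (0.0333 to 0.047) and without any of 5 arrays (0.0289 to 0.0499).

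Slc7a3 encodes a transporter of cationic amino acids such as arginine. At 12 h Slc7a3 had signals of 1854, 1899 and 2239 in induced arrays, against 2523, 2611 and 2511 in uninduced ones. At 24 h Slc7a3 measured 1644, 1498 and 1734 in induced ones, against 2275, 2165 and 2383 in uninduced ones. At 48 h Slc7a3 measured 428, 680.1 and 522 in induced arrays and 1163, 1026 and 1501 in uninduced ones. Induced arrays lay below uninduced ones at all 3 times. The difference was -0.35 ± 0.127 at 12 h (adjusted p = 0.311), -0.48 ± 0.127 at 24 h (adjusted p = 0.0489) and -1.14 ± 0.127 at 48 h (adjusted p = 1.79e-06), and only the later 2 were called. The 24 h call stood at the threshold: it was lost under 6 of 13 other settings (adjusted p 0.0526 to 0.0974) and without any 1 of 14 of the 18 arrays (0.0509 to 0.216, the highest without induced 24 h replicate 2). At 12 h the difference was called when those arrays were fitted alone (adjusted p = 0.0458).

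**Figure D2:**
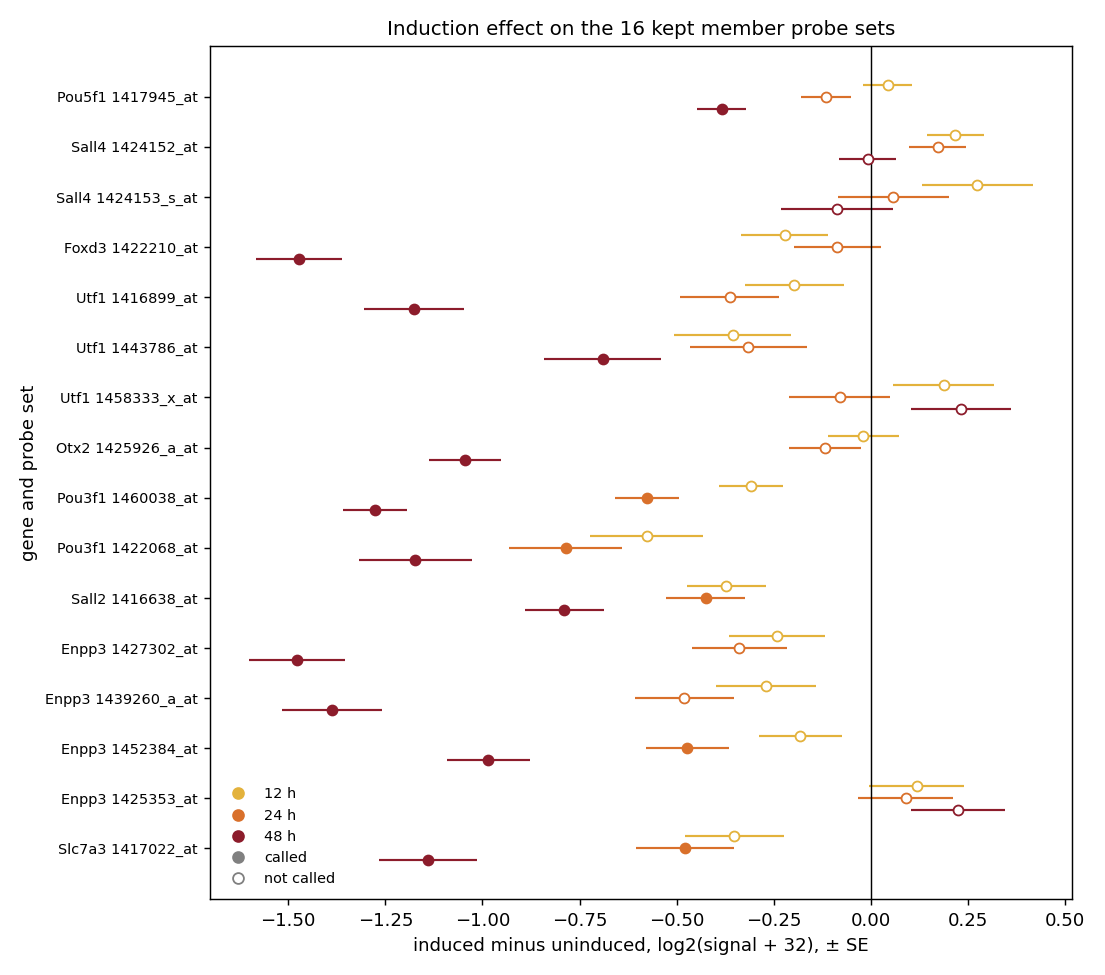
Induced minus uninduced difference of log2(signal + 32) with its standard error for the 16 tested probe sets at 12, 24 and 48 h. Filled points were called by limma and open points were not. The 12 filled points at 48 h lie between -1.48 and -0.38, and both Sall4 probe sets are open at all 3 times.

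Between 24 h and 48 h of induction 12 of the 16 probe sets fell and 0 rose, against 9.38% and 10.8% of all probe sets, and the same 8 genes were called as in the comparison with uninduced arrays at 48 h. The change was -2.10 for Utf1, -2.03 for Pou3f1, -1.93 for Enpp3 and -1.77 for Foxd3. It was -0.48 for Pou5f1 and 0.04 for Sall4, which was not called (adjusted p = 0.794). Between 12 h and 24 h only Pou3f1 and Enpp3 were called in induced embryoid bodies: 4 probe sets fell and 0 rose, against 3.96% and 6.14% of all. Pou3f1 fell by 0.41 (adjusted p = 0.00294), and the changes of the 3 Enpp3 probe sets called ran from -0.71 to -0.44 (adjusted p up to 0.0252). The other Pou3f1 probe set, 1422068_at, differed by -0.17 in this step (adjusted p = 0.531). The call of the leading Enpp3 probe set in that step was lost without induced 12 h replicate 2 (adjusted p = 0.101) or 3 (0.0995) or induced 24 h replicate 2 (0.063) or 3 (0.11). Over the whole induced course from 12 h to 48 h 12 probe sets fell and 0 rose, against 14.9% and 19.7% of all, with Pou3f1 5.41-fold and Enpp3 5.17-fold lower at 48 h. Pou5f1 fell by 0.45 over that span, and with quantile normalization its change was -0.29. Under the same normalization Sall4 rose by 0.21 (adjusted p = 0.0132), against 0.08 without it (adjusted p = 0.413).

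Most of the genes also fell without induction. Between 24 h and 48 h in uninduced embryoid bodies 11 probe sets fell and 1 rose, against 8.47% and 10.8% of all probe sets. The change was -1.33 for Pou3f1, -1.29 for Utf1, -0.89 for Slc7a3 and -0.79 for Enpp3. It was -0.50 for Sall2, -0.38 for Foxd3 and -0.21 for Pou5f1. Sall4 rose by 0.22 (adjusted p = 0.0430), and Otx2 differed by -0.06 (adjusted p = 0.699). The Pou5f1 fall was lost without an intensity trend in the variances (adjusted p = 0.0843) and without uninduced 24 h replicate 1 (0.0575) or 3 (0.0937) or uninduced 48 h replicate 2 (0.0805) or 3 (0.11). The Foxd3 fall was lost without uninduced 24 h replicate 1 (adjusted p = 0.0662) or uninduced 48 h replicate 2 (0.0744), and the Sall4 rise under 3 of 13 settings (0.067 to 0.105) and without any of 7 arrays (0.051 to 0.192, the highest without uninduced 24 h replicate 2). The Sall4 probe set 1424153_s_at, at 0.27 (adjusted p = 0.207), was called without uninduced 48 h replicate 3 (adjusted p = 0.00361), as it was over 12 h to 48 h (0.000592 against 0.0696). Between 12 h and 24 h in uninduced embryoid bodies 1 probe set fell, Enpp3 1452384_at by 0.42 (adjusted p = 0.0421), and 0 rose, against 1.08% and 1.31% of all. That call was lost under 6 of 13 settings (adjusted p 0.0531 to 0.0881) and without any of 10 arrays (0.0501 to 0.183, the highest without uninduced 24 h replicate 2). With the replicate block at 24 h the leading Enpp3 probe set, which differed by -0.34, was called as well (adjusted p = 0.0476).

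From 12 h to 48 h in uninduced embryoid bodies 10 probe sets fell and 1 rose, against 11.4% and 15.7% of all. Pou3f1 was 2.77-fold lower, Utf1 2.27-fold, Enpp3 2.20-fold, Slc7a3 2.07-fold, Foxd3 1.39-fold and Sall2 1.27-fold lower at 48 h. The Sall2 fall was lost without uninduced 12 h replicate 1 (adjusted p = 0.0661) or uninduced 48 h replicate 2 (0.0631). Sall4 rose by 0.31 (adjusted p = 0.00300). Pou5f1 and Otx2 were not called over this span, with differences of -0.02 (adjusted p = 0.842) and -0.07 (adjusted p = 0.634). In induced embryoid bodies over the same span Pou5f1 changed by -0.45 and Otx2 by -1.10. The time courses use the same arrays as the comparisons of induced with uninduced embryoid bodies, so the values stand side by side and do not support one another.

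**Figure D3:**
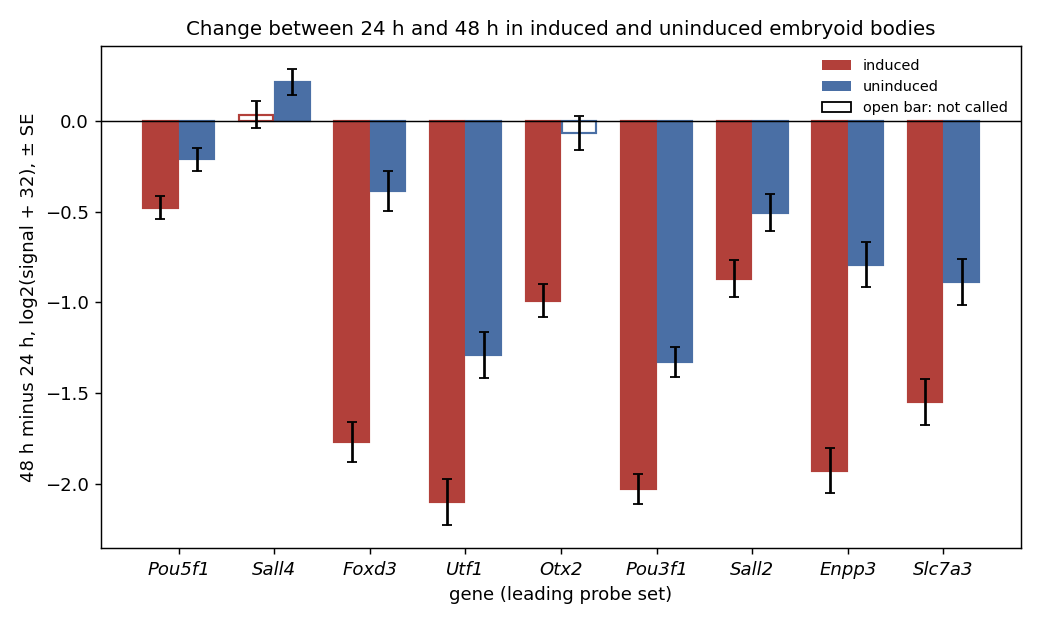
Change of log2(signal + 32) from 24 h to 48 h (48 h minus 24 h) with its standard error for the leading probe set of each gene, in induced (red) and uninduced (blue) embryoid bodies. Bars start at 0 and open bars were not called. Utf1 and Pou3f1 have the longest red bars, -2.10 and -2.03, and Otx2 has a red bar of -0.99 beside an open blue one of -0.06.

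Whether induction had a different effect at 48 h than earlier was tested directly. Against 24 h the effect was lower at 48 h for 6 of the 16 probe sets and higher for 0, while 0.968% of all probe sets lay in each direction. The difference of effects was -1.39 ± 0.158 for Foxd3 (adjusted p = 2.54e-05), -1.14 ± 0.174 for Enpp3 (adjusted p = 7.22e-04) and -0.93 ± 0.130 for Otx2 (adjusted p = 3.00e-04). It was -0.81 ± 0.181 for Utf1 (adjusted p = 0.0179) and -0.70 ± 0.117 for Pou3f1 (adjusted p = 0.00164). The other bright probe sets of these genes were not called, with -0.37 for Utf1 1443786_at (adjusted p = 0.548) and -0.39 for Pou3f1 1422068_at (adjusted p = 0.506). The call of Utf1 was lost with the arrays of this comparison alone (adjusted p = 0.0559) and without induced 24 h replicate 1 (0.0563) or uninduced 48 h replicate 3 (0.0599). Enpp3 1439260_a_at was called too (-0.91, adjusted p = 0.00788), and 1452384_at was called only with the replicate block at 24 h (adjusted p = 0.0456) or without induced 48 h replicate 2 (adjusted p = 0.0192). Slc7a3 missed the threshold at -0.66 (adjusted p = 0.0613) and passed it when 1 probe set stood for each gene (adjusted p = 0.0425), or without uninduced 48 h replicate 2 (0.0257) or induced 48 h replicate 2 (0.00565). The differences of Pou5f1 (-0.27, adjusted p = 0.174), Sall2 (-0.36, adjusted p = 0.285) and Sall4 (-0.18, adjusted p = 0.555) were not called.

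Set against 12 h, the induction effect at 48 h was lower for 9 probe sets of 7 genes and higher for 0, against 1.64% and 1.87% of all probe sets. The differences ran from -1.25 for Foxd3 (adjusted p = 4.15e-05) through -1.23 for Enpp3, -1.03 for Otx2, -0.98 for Utf1, -0.97 for Pou3f1 and -0.79 for Slc7a3 to -0.43 for Pou5f1 (adjusted p = 0.00701). The call of Pou5f1 was lost without an intensity trend (adjusted p = 0.0516). Utf1 1443786_at (-0.33, adjusted p = 0.513) and Pou3f1 1422068_at (-0.60, adjusted p = 0.136) were not called. Sall2 was not called (-0.42, adjusted p = 0.136), but was without induced 12 h replicate 1 (0.0299) or induced 48 h replicate 2 (0.0408), and Sall4 differed by -0.22 (adjusted p = 0.315). Sall4 1424153_s_at was called without uninduced 48 h replicate 3 (adjusted p = 0.0381, against 0.439 with it). Between 24 h and 12 h limma called 0 of the 16 differences of effects, against 0.0115% of all probe sets lower and 0.0384% higher. An unadjusted p under 0.05 was found for 1 of the 16, and the share of all probe sets under that limit was not counted.

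Between the 8 genes other than Sall4, the correlation of log2(signal + 32) ran from 0.813 for Pou5f1 with Enpp3 to 0.974 for Pou3f1 with Slc7a3. Sall4 correlated with the others between -0.615 for Utf1 and -0.230 for Pou5f1. These coefficients describe 18 arrays in 6 groups that share their group means. In the order of levels Pou3f1 and Slc7a3 had uninduced 12 h highest and apart from uninduced 24 h, which overlapped with induced 12 h, and induced 48 h lowest and apart. For Enpp3 uninduced 12 h was highest too, the next 3 groups overlapped as neighbours, and uninduced 48 h and induced 48 h followed, each apart. Utf1 and Foxd3 likewise ended with uninduced 48 h and then induced 48 h, each apart from the group above.

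Among 13487 named genes compared, each member had close neighbours in pattern. Pou5f1 was most like Ugt8a (r = 0.946), Sycp3 (0.933) and Fam120b (0.928), and Otx2 was most like Epcam (0.969), Grb7 (0.966) and Ugt8a (0.964). Pou3f1 was most like Pycard (0.991), Abcc4 (0.982) and Gldc (0.975), Slc7a3 most like Abcc4 (0.980), Gldc (0.979) and L1td1 (0.979), and Enpp3 most like Patl2 (0.974), Gldc (0.971) and Slc7a3 (0.971). Gldc was among the 3 closest for each of these 3 members. Utf1 was most like Myrf (0.981), Uchl1 (0.980) and Dtx1 (0.979), Foxd3 most like Sox3 (0.967), Bmerb1 (0.967) and Dact2 (0.965), and Sall2 most like Camsap3 (0.965), Gstt2 (0.959) and Sox3 (0.956). Sall4 was most like Lrrc58 (0.910), Tgfbr1 (0.898) and Fgfr1 (0.889).

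Other genes of the same states were counted by 1 probe set per gene, in lists drawn up with earlier results known. Of 15 other core pluripotency genes 6 fell and 1 rose with induction at 48 h (median -0.28, beside 0.0016 over all probe sets). Sox2, a partner of Oct4, fell by 1.06 on the log2 scale, the Nodal antagonist gene Lefty1 by 1.03 and L1td1, an RNA-binding protein gene of stem cells, by 0.72. At 24 h 2 of these 15 rose and 1 fell, and at 12 h limma called 0. Over time, from 12 h to 48 h, 11 of the 15 fell and 2 rose in uninduced embryoid bodies (median -0.59). In induced ones 11 fell and 1 rose (median -0.98). Of 14 other primed epiblast genes 9 were lower and 2 higher with induction at 48 h (median -0.60), among them the growth factor gene Fgf5 at -1.32, Sox3 at -1.30 and Foxa2, which also marks endoderm, at -2.04. Here lower means lower than in uninduced embryoid bodies of the same time, where this list moved up. From 12 h to 48 h 7 of the 14 rose and 5 fell in induced embryoid bodies (median 0.24), and 10 rose and 3 fell in uninduced ones (median 0.73). Fgf5 had a signal of 629.8 ± 164 at 48 h and 634 ± 72.3 at 12 h in induced embryoid bodies (SD, n = 3 each), a change that was not called (log2 -0.04, adjusted p = 0.872). In uninduced ones Fgf5 rose to 1586 ± 59.4 at 48 h, against 741 ± 92.9 at 12 h (SD, n = 3 each, log2 1.07, adjusted p = 3.79e-06). Of 14 naive pluripotency genes 5 were lower and 2 higher than in uninduced embryoid bodies at 48 h (median -0.23). Nr0b1 was lower by 0.85, and Tbx3, which also has roles in mesoderm and endoderm, and Klf4 were higher by 2.18 and 0.76. In the same comparison at 24 h 3 of the 14 were lower, with Nr0b1 at -0.85. Over time this list moved down with and without induction. From 12 h to 48 h 11 of the 14 fell and 1 rose in induced embryoid bodies (median -0.94). In uninduced ones 13 fell and 0 rose (median -1.09).

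Relatives of the members were counted likewise. In their counts with induction, rose and fell mean higher and lower than in uninduced embryoid bodies of the same time. Of 8 other POU and spalt family genes limma called 0 with induction at 12, 24 or 48 h, and their median at 48 h was -0.04. Of 13 other Slc7 and Enpp family genes 4 rose and 1 fell at 48 h (median 0.0004), and limma called 0 at 12 h and at 24 h. From 24 h to 48 h 2 of these 13 moved up and 2 down in induced embryoid bodies, and 1 moved up and 4 down in uninduced ones. Slc7a1, the widely expressed transporter of cationic amino acids, stood at 497 ± 22.7 in induced embryoid bodies at 48 h, against 200.4 ± 26.7 in uninduced ones (SD, n = 3 each; log2 change 1.19, adjusted p = 9.39e-09). At 48 h Slc7a3 was thus lower than in uninduced embryoid bodies and Slc7a1 higher. Slc7a5 rose by 0.57 and Slc7a2 by 0.46, and the call of Slc7a2 was lost without uninduced 48 h replicate 1 (adjusted p = 0.0571) or 3 (0.0904) or induced 48 h replicate 3 (0.07), and its change was 0.30 with an offset of 64.

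**Figure D4:**
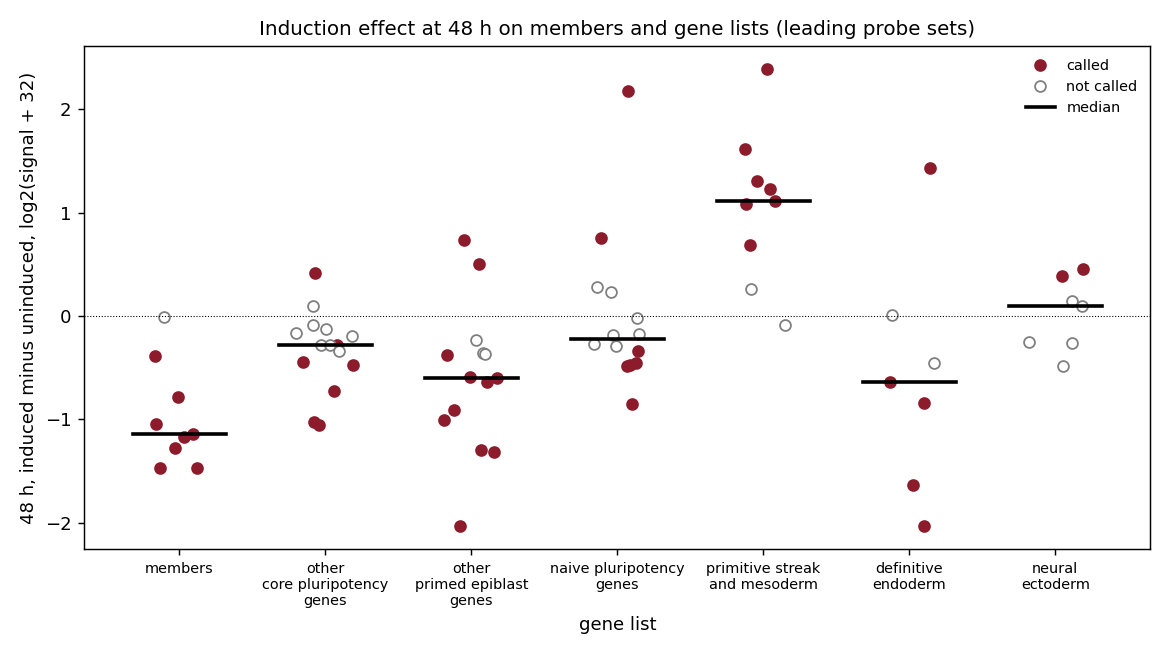
Induced minus uninduced difference of log2(signal + 32) at 48 h for the leading probe set of the 9 genes (members) and of 6 gene lists. Filled points were called, open points were not, and lines mark list medians. The members' median is -1.14, and that of primitive streak and mesoderm genes is 1.11.

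Markers of other cell types moved in the same comparison, and their part in the falls was not tested. Here and in the next paragraph rose and fell mean higher and lower than in uninduced embryoid bodies of the same time. Of 9 primitive streak and mesoderm markers 7 rose at 48 h and 0 fell (median 1.11), with Kdr at 2.39 and Tbx20 at 1.61. The summed signal of the 10 markers on the array lay between 7123 and 8522 in induced and between 4895 and 6112 in uninduced embryoid bodies, with Meox1 under the filter in both. At 24 h 7 of the 9 rose, and the sums were 1929 to 2615 in induced and 597 to 1034 in uninduced ones, whereas 3 members fell by their leading probe sets. Also at 24 h 5 of 8 extraembryonic endoderm markers rose (median 0.58; sums 1384 to 1609 in induced and 969.7 to 1159 in uninduced), 2 of 7 definitive endoderm markers rose (median -0.01), and 1 of 9 fibroblast and 1 of 7 neural markers rose. Lama1, Sox7 and Col4a1 had the largest called changes of the extraembryonic list at 24 h or 48 h. Of these only Sox7 lost a call, that at 24 h, with the 24 h arrays alone (adjusted p = 0.114) and without any of 4 arrays (0.055 to 0.148). The call of the fibroblast marker, Col1a2, was lost without any of 4 arrays (adjusted p 0.0537 to 0.0845). The call of the neural one, Zfp521, was lost without induced 24 h replicate 3 (adjusted p = 0.0533). Of 8 extraembryonic endoderm markers 6 rose at 48 h (median 0.74; sums of 10 genes 2692 to 2995 in induced and 1460.0 to 1671 in uninduced), with Afp and Ttr under the filter in both groups. Of 7 definitive endoderm markers 4 were lower and 1 higher (median -0.64; sums 1351 to 1657 in induced and 2286 to 2871 in uninduced), with Cer1 at -1.64 and Cxcr4 at 1.44. Against 24 h, 5 of the 7 were higher and 0 lower at 48 h in induced embryoid bodies (median 0.51). In uninduced ones all 7 were higher (median 1.83). Foxa2 counts in this list and in that of the primed epiblast.

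Fibroblast markers, which feeder cells would carry, included 2 of 9 that rose at 48 h and 0 that fell (median 0.09). These were Col1a2 at 0.84 and Acta2 at 0.75, and the summed signal was 981 to 1082 in induced and 713 to 789.5 in uninduced embryoid bodies, with Lum under the filter in induced ones. Of 7 neural ectoderm markers 2 rose and 0 fell (median 0.09; sums of 8 genes 499.5 to 553 in induced and 500.4 to 542 in uninduced), with Sox1 and Neurog2 under the filter in both groups and Pax6 and Pax3 in uninduced ones. The 2 that rose, Pax3 at 0.45 and Zfp521 at 0.39, lost the call without any of 12 and any of 3 arrays, with adjusted p up to 0.214 without uninduced 48 h replicate 2 and up to 0.224 without uninduced 48 h replicate 3. Pax3 also lost it under 5 of 13 settings (adjusted p 0.0504 to 0.0661) and changed by 0.27 with an offset of 64, and Zfp521 lost it under 4, the replicate block among them (adjusted p 0.0501 to 0.0635). Of 4 trophoblast markers 2 rose, Hand1 and Cdx2 (median 0.57; sums of 5 genes 179 to 317 in induced and 122 to 132 in uninduced), with Elf5 under the filter in both, and Hand1 is also in the mesoderm list. Of 6 germ cell markers 1 fell, Kit at -0.85 (median -0.07; sums 561 to 632 in induced and 662 to 794 in uninduced). The 4 stem cell markers Pou5f1, Nanog, Sox2 and Zfp42 all fell (median -0.47; sums 5461 to 6520 in induced and 8505 to 8961 in uninduced), Nanog by 0.45 and Zfp42 by 0.49. None of the 4 was under the filter in any group. Their sums at 12 h were 12229 to 13030 in induced and 12273 to 12435 in uninduced embryoid bodies.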

How the data were processed

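RNA (100 ng per sample, integrity number above 9 per the labels' protocols) was hybridised to 1 array per sample. The deposited values are linear intensity values, 1 per probe set, made by the authors with GCOS per the submitters' processing notes. The sources used here do not give how signals were computed and scaled. The 2% trimmed mean was 150 on every array.

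Probe sets were named through GEO's platform annotation, 34741 of them updated by Entrez identifier. Of 45101, 34945 had 1 gene, 932 several, 9160 none, and 64 were controls. Those with a group mean at or above the 40th percentile of all signals (13.3) in at least 1 group were kept, 26037 in all. This filter favours genes high in 1 group. log2(signal + 32) was fitted over all 18 arrays in 6 groups with limma 3.58.1 in R 4.3.3 (lmFit, eBayes with an intensity trend, 12 residual degrees of freedom) for 12 contrasts, with Benjamini-Hochberg adjustment over probe sets. The fit was tested on simulated data. No further normalization was made, since array medians of log2 values lay within 0.0922. The number of arrays limits the precision.

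The members and lists were chosen with earlier results of these data known. All member probe sets are accounted for, the kept one with the highest mean leading. From each list the called genes with the largest changes are named (up to 3), and for each member the 3 genes with the highest Pearson r over the arrays. Brachyury was not used.

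Groups share replicate numbers. Deviations of same-numbered induced and uninduced arrays correlated at 0.197, 0.119 and 0.442 at 24 h, and at 0.0121, 0.0741 and -0.0694 at 12 h and -0.0958, -0.0305 and 0.123 at 48 h. The block was therefore also run at 24 h only. Number 3 alone was matched there, since induced replicate 1 with uninduced 2 (0.207) and induced 2 with uninduced 1 (0.110) correlated like the same-numbered pairs. Alternatives were quantile normalization, other filters, offsets, variance models and feature sets, the compared arrays alone, the replicate block, and leaving out each array. The block at 24 h only and a filter on mean log2 were added after seeing the data.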

Additional observations from a re-analysis of the deposited data

Results flagged for a closer look

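The effect of induction differed between times for 9 probe sets of 7 genes, by a limma test of the difference itself, and each was lower at 48 h. Against 24 h, the effect on log2(signal + 32) at 48 h differed by -1.39 for Foxd3, -1.14 for Enpp3 1427302_at, -0.91 for Enpp3 1439260_a_at, -0.93 for Otx2, -0.81 for Utf1 and -0.70 for Pou3f1. Against 12 h it differed by -1.25 for Foxd3, -1.23 for Enpp3 1427302_at, -1.12 for Enpp3 1439260_a_at, -0.80 for Enpp3 1452384_at and -1.03 for Otx2. It differed by -0.98 for Utf1, -0.97 for Pou3f1, -0.79 for Slc7a3 and -0.43 for Pou5f1. Both sets of differences use the same 48 h arrays. The further probe sets Utf1 1443786_at and Pou3f1 1422068_at were not called in either, at -0.37 and -0.39 against 24 h and at -0.33 and -0.60 against 12 h.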

How the results depend on the processing

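The member count at 48 h of induction was 12 under every left-out array and 8 genes when 1 probe set stood for each gene. Under 31 alternatives no member change called in the main fit or in the alternative reversed its sign. The sign of a change called in neither was not judged. Of 5844 member values 73 lost a call and 33 gained one, and of 2694 values of named list genes 37 lost and 11 gained one. At 12 h the members called numbered 2 with the compared arrays alone and 1 with the replicate block at 24 h, against 0, and 0 to 1 without single arrays. At 24 h they were 3 at gene level and 7 with the replicate block at 24 h, against 5, and 2 (without uninduced 24 h replicate 1) to 6 without single arrays. In the uninduced 12 h to 24 h step they were 0 with quantile normalization, no filter, an offset of 16, gene level, no intensity trend, the compared arrays alone or the replicate block over all times, and 2 with an offset of 64 or the replicate block at 24 h, against 1, and 0 to 2 without single arrays. At gene level, which holds 9 genes in place of 16 probe sets, they were 2 for the induced 12 h to 24 h step, against 4, and 7 for the uninduced 12 h to 48 h span, against 11. Over all probe sets, calls at 12 h were 259 with the replicate block at 24 h, against 169, and 88 (without induced 12 h replicate 2) to 199 without single arrays. At 24 h they were 264 with the compared arrays alone and 800 with the replicate block at 24 h, against 602, and 333 (without induced 24 h replicate 2) to 630 without single arrays. In the induced 12 h to 24 h step they were 1359 (without induced 24 h replicate 2) to 3073 without single arrays, against 2630. The induced 12 h to 48 h span had 5939 at gene level, against 8997. The uninduced 12 h to 24 h step had 414 with no intensity trend, 127 with the compared arrays alone and 1103 with the replicate block at 24 h, against 623, and 184 (without uninduced 12 h replicate 2) to 1040 without single arrays. The differences of effects between 24 h and 12 h numbered 8 with no intensity trend and 23 with the replicate block at 24 h, against 13, and 6 (without induced 12 h replicate 2) to 23 without single arrays. The cause was not tested. The 3 arrays per group limit what can be called.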
